A study of Mus musculus with 6 samples.

Results

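Myod1, Myf5, Myog, Myf6 and Mef2c were each represented by 1 named feature on the array, so the group held 5 of the 6160 named genes tested and 5 of the 10500 features in the deposited table. The genes were taken by symbol, with earlier results of these data known. Each had a value on all 6 arrays, and each was among the 10186 features tested. Expression was measured on 1-colour CodeLink arrays in satellite cells, the resident stem cells of muscle, cultured from 3 male adult mice of the Swiss Webster stock. Anterior and superficial posterior hind limb muscles were pooled for each animal. According to the labels, minced muscle went through 5 days of trituration and preplating on plastic, which removes fibroblasts, until a mixture of purified myoblast clones was left. The proliferating group (3 arrays) was grown on gelatin with basic fibroblast growth factor at 6.6 ng/ml. The differentiated group (3 arrays) received insulin (labelled 1 mM) and 10% horse serum without the growth factor, and was harvested after 72 hours. Every mouse gave 1 culture of each kind, and the cultures were mixed clones rather than a clonal line.

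Myod1, Myf5, Myog and Myf6 encode the 4 myogenic regulatory factors, basic helix-loop-helix transcription factors that bind E-boxes in DNA as dimers with E proteins and switch on muscle genes. Myf5 and MyoD commit and maintain myoblasts, myogenin (Myog) drives terminal differentiation, and Myf6, also called MRF4, is a late factor of fibres. Mef2c encodes a MADS-box factor that binds A/T-rich MEF2 sites and works together with the myogenic factors, whose genes it can in turn activate.

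The 250 bases before an annotated start are shown for Myog and Mef2c, as examples of factors with a higher mean level after differentiation, and for Myf5, which took a different direction in different mice. They are RefSeq sequences of build GRCm38.p6, with every E-box (CANNTG, which reads the same way on both strands) and every MEF2 box in capitals. A MEF2 box was taken as 10 letters in which 4 letters that are A or T lie between TA and TA.
Myog, chr1:134289754-134290003, + strand: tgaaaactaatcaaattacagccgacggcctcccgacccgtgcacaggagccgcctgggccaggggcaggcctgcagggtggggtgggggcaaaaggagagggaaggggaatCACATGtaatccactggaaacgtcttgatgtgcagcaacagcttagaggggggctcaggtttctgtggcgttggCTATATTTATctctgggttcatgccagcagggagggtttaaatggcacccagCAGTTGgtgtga
Mef2c, first of 3 annotated starts, chr13:83503784-83504033, + strand: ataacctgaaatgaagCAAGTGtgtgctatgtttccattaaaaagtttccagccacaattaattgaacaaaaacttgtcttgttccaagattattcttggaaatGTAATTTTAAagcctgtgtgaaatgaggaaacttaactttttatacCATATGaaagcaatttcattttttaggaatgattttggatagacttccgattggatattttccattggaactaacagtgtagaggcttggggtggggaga
Myf5, chr10:107486135-107486384, - strand: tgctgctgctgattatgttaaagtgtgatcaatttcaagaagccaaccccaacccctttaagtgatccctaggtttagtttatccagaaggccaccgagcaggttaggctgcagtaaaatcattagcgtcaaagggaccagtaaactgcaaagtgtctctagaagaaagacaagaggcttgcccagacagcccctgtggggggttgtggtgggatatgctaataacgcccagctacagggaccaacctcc
The Myog window held E-boxes beginning 138 and 12 bases before the start and a MEF2 box beginning 64 bases before it. The first Mef2c window held 2 E-boxes and 1 MEF2 box, and of its other windows 1 held an E-box and 1 held neither motif. No E-box and no MEF2 box was found in the Myf5 window. That window lies inside the annotated span of the gene, which runs from 107482908 to 107486927. The first Mef2c window ends at 83504033, past the annotated gene start at 83504017. Among 32851 windows of the same length, 66.2% held an E-box, 31.8% at least 2, 8.48% a MEF2 box and 5.84% an E-box together with a MEF2 box. No window is shown for Myod1 or Myf6. Such matches are letters in a window and not measured binding sites.

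Myod1 was lower in the differentiated culture of every mouse, Myog, Myf6 and Mef2c were higher in every mouse, and Myf5 was higher in mouse 1 and lower in mice 2 and 3. Mef2c and Myf6 differed most, by 7.73-fold and 6.68-fold. Both missed the threshold of 0.05 without mouse in the fit (limma adjusted p = 0.082 and 0.0978). They passed it when mouse was taken into account, just under it at 0.0495 with mouse as a fixed block. Intensities are on the deposited scale, on which array medians lay between 0.883 and 0.939, and differences are differentiated minus proliferating on the log2 scale. Levels of the factors come from 1 feature each and were compared only within a gene. For the gene lists below, intensities were also summed over features, and some were set against the array median. Levels of different features are not strictly comparable, so these sums and placings are a rough description. The brightest features weigh most in such a sum. In bulk cultures such as these, fewer cells of a type and less RNA per cell cannot be told apart.

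**Figure D1:**
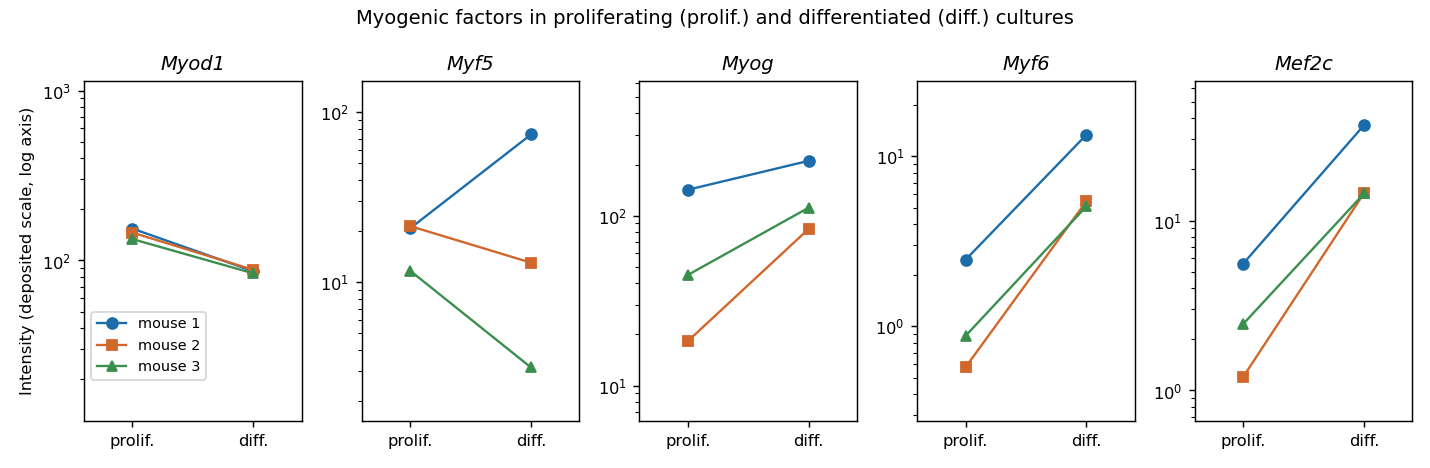
Intensity (log axis, deposited scale) of each factor in the proliferating and differentiated culture of mice 1, 2 and 3, with a line joining the cultures of a mouse; every axis spans the same fold range, and levels are not comparable between panels. Myod1 lines fall nearly in parallel. Mef2c and Myf6 lines rise in every mouse, most steeply in mouse 2, and those of mice 2 and 3 cross. Myog lines converge from 18.3 to 142 towards 83.7 to 210.3, and Myf5 lines fan out from 11.7 to 21.4 towards 3.15 to 74.0.

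Mef2c had intensities of 5.58, 1.20 and 2.46 in the proliferating cultures of mice 1, 2 and 3 and of 36.5, 14.5 and 14.4 in their differentiated cultures. The groups did not overlap, and the lowest differentiated value was 2.59 times the highest proliferating value. Within mice 1, 2 and 3 the differentiated value was higher by 6.54-fold, 12.1-fold and 5.86-fold. The mean difference was 2.95 ± 0.67 (log2, SE, n = 3 arrays per group, 95% interval 1.42 to 4.48), with a limma adjusted p of 0.082 over all features. With mouse as a fixed block the limma adjusted p was 0.0495, just under the threshold of 0.05, and with mouse as a random block it was 0.00731. Of the features tested, 1.86% had a larger difference in either direction.

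Myf6 followed much the same course. Its intensities were 2.46, 0.575 and 0.878 while proliferating and 13.4, 5.45 and 5.08 once differentiated. The groups did not overlap here either, and mouse 1 was highest in each of them. Within mice 1, 2 and 3 the differentiated value was higher by 5.44-fold, 9.48-fold and 5.79-fold, with mouse 2 again showing the largest. The mean difference was 2.74 ± 0.66 (log2, SE, 95% interval 1.22 to 4.26), with a limma adjusted p of 0.0978 without a block, 0.0495 with the fixed block and 0.00838 with the random block. Without a block, leaving out the proliferating culture of mouse 1 also brought Myf6 and Mef2c past the threshold, with differences of 3.34 and 3.52 (limma adjusted p = 0.0467 and 0.0457). Leaving out any other array, or both arrays of a mouse, left them short of it in that fit. The limma adjusted p was then from 0.0987 to 0.497 for Myf6 and from 0.107 to 0.434 for Mef2c. Arrays were not left out in the fits with a block.

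Without a block, 0 of the 5 factors passed, against a background of 0.285% of features called higher and 1.01% called lower by limma. At an unadjusted p under 0.05 in limma 2 of the 5 were higher and 0 lower, against 7.82% and 7.09% of features. Mef2c and Myf6, 2 of the 5, passed as higher with the fixed block, where 0.56% of all features were called higher, 0.874% lower and 1.43% in either direction, and the same 2 with the random block, where 5.07% did. Of the 5 factors 3 were higher in all mice (31% of features) and 1 was lower in all mice (18%). For 2 the differentiated values all lay above the proliferating ones (10.9% of features), and for 1 all below (9.8%).

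**Figure D2:**
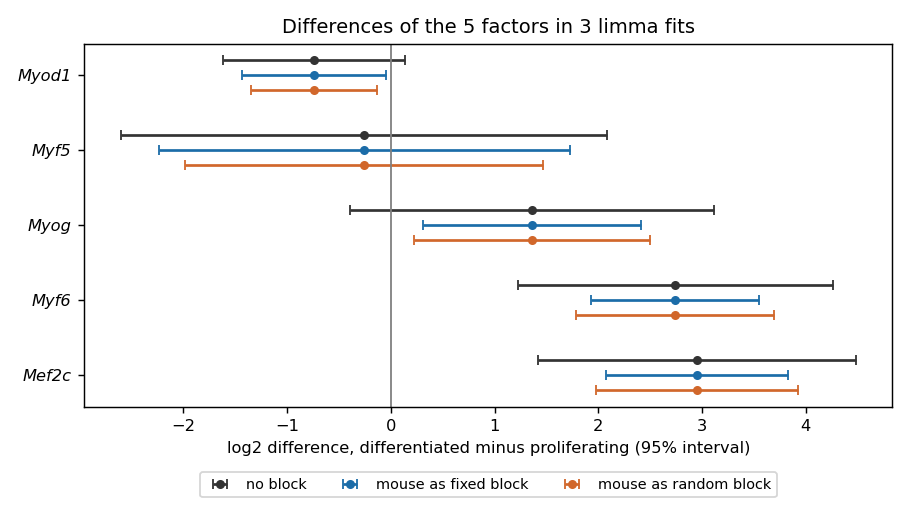
The log2 difference (differentiated minus proliferating) of each factor with its 95% interval from limma, without a block, with mouse as a fixed block and with mouse as a random block. Intervals of Mef2c and Myf6 lie above 0 in each fit, those of Myog and Myod1 exclude 0 only with a block, and those of Myf5 span 0 throughout.

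Myog levels in the 2 groups overlapped. Its proliferating cultures read 142, 18.3 and 44.8 and its differentiated cultures 210.3, 83.7 and 112. The proliferating culture of mouse 1 lay above the differentiated cultures of mice 2 and 3. In mouse 1 the proliferating level was 67.6% of the differentiated level, against 21.8% in mouse 2 and 40.2% in mouse 3. The corresponding shares for Mef2c were 15.3%, 8.28% and 17.1%. The mean Myog difference was 1.36 ± 0.76 (log2, SE, 95% interval -0.40 to 3.11), or 2.56-fold, and it missed the threshold (limma adjusted p = 0.467). All 3 mice had the higher level after differentiation, by 1.48-fold, 4.58-fold and 2.49-fold. Under the fixed or the random block the 95% interval was 0.31 to 2.41 or 0.22 to 2.50, and the limma adjusted p was 0.136 or 0.120. In the fit without a block, leaving out the proliferating culture of mouse 1 gave a difference of 2.13 and leaving out that of mouse 2 gave 0.65 (limma adjusted p = 0.167 and 0.823). The size of the Myog difference thus rests on these arrays.

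Myod1 was the steadiest of the 5. It read 154, 146 and 134 while proliferating and 86.4, 88.1 and 84.0 once differentiated, so the groups did not overlap and the lowest proliferating value was 1.52 times the highest differentiated value. Within mice 1, 2 and 3 it was lower by 1.78-fold, 1.66-fold and 1.59-fold. The within-group SD was 0.0773 on the log2 scale, smaller than that of all but 14 of the 10186 features, whose median was 0.665. The mean difference was -0.74, with an SE of 0.063 from the spread of Myod1 alone and of 0.38 in limma, which pools the spread over features. In limma it did not pass (adjusted p = 0.418 without a block, 0.184 with the fixed and 0.113 with the random block, 95% interval without a block -1.62 to 0.14). An exact two-sided permutation test over the 6 arrays gave 0.1, the smallest p that 3 against 3 allows. The same test gave 0.1 for Mef2c and Myf6, 0.3 for Myog and 0.8 for Myf5. After quantile normalization of the arrays the Myod1 difference was -1.16 (limma adjusted p = 0.148).

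Myf5 had no common direction. Its intensities were 20.7, 21.4 and 11.7 in proliferating cultures, a 1.83-fold spread, and 74.0, 13.0 and 3.15 in differentiated cultures, a 23.5-fold spread. It was 3.57-fold higher in mouse 1, 1.64-fold lower in mouse 2 and 3.71-fold lower in mouse 3. The mean difference of -0.26 ± 1.02 (log2, SE, 95% interval -2.60 to 2.09) missed the threshold (limma adjusted p = 0.944). The value became -1.43 without the differentiated culture of mouse 1, and without that of mouse 3 it was 0.84, so no direction can be given. In the annotation Myf5 and Myf6 are neighbours, with 0 genes starting between them, and Myf6 was higher in all 3 mice.

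How far the arrays differed by culture condition and how far by mouse was not alike among the factors. Culture condition held 97.2% of the sum of squares of log2 intensity for Myod1, 78.2% for Mef2c and 76.0% for Myf6, but 34.2% for Myog and 0.904% for Myf5. Mouse held 57.6% for Myog and 66.1% for Myf5, against 19.9% for Mef2c, 22.7% for Myf6 and 1.99% for Myod1. Over all 10128 features with 6 values the median shares were 19.4% for condition and 52.0% for mouse. For Myf5 the remaining 33% went with neither. These shares are a description of 6 arrays and were not tested.

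**Figure D3:**
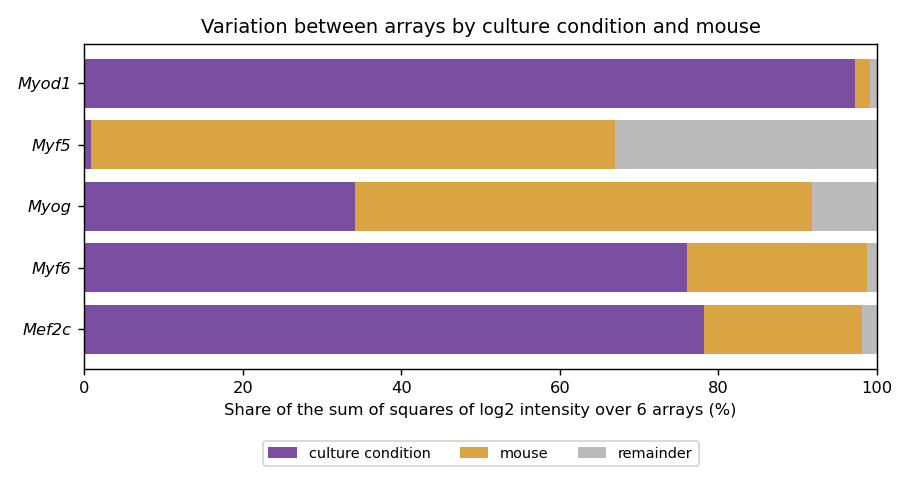
Share (%) of the sum of squares of log2 intensity over the 6 arrays that went with culture condition, with mouse and with neither, for each factor. Condition takes 97.2% for Myod1 and 0.904% for Myf5, and mouse takes 57.6% for Myog.

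The mice differed in the same order for several factors while still proliferating. Myog, Myf6 and Mef2c were highest in mouse 1 and lowest in mouse 2, an order seen in 23.3% of all features. Of 22 measured muscle targets of the myogenic factors, 19 had this order, as did 12 of 17 MEF2 targets. The summed intensity of those 22 targets was 1934, 349.9 and 788 in the proliferating cultures of mice 1, 2 and 3. Of 8 measured markers of dividing cells, 0 had this order, and their summed intensity was 93.1, 180.3 and 128. The sum of 5 smooth muscle markers also ran in this order, at 98.3, 12.8 and 86.9. Acta2, which made up most of that sum, did not, at 80.1, 8.59 and 81.1. The sum of 2 adipocyte markers had the order, at 3.92, 0.552 and 0.821. Of these markers Pparg had it (1.71, 0.234 and 0.680) and Fabp4 did not (2.22, 0.318 and 0.141). The part of any of these groups of genes in the factors' values was not tested. After differentiation mouse 1 was again highest for Myog, Myf6 and Mef2c, and the target sums were 4221, 3070.3 and 2925.

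Likeness over the 6 arrays, measured as Pearson's r of log2 values against 4725 other named genes, is a description, since arrays share a mouse or a culture condition. Mef2c was the gene most like Myf6 (r = 0.996), followed by the cytokine gene Il15 (0.994) and Fabp3 (0.993), a fatty acid-binding protein of muscle. For Mef2c the closest were Ap4s1 (0.998), an adaptor complex subunit, Myf6 and Fxyd6 (0.993). Closest to Myog were Hrc (0.993), a calcium-binding protein of the sarcoplasmic reticulum, Necap1 (0.990) and the zinc transporter gene Slc30a1 (0.990), with Myf6 at 0.889 and Mef2c at 0.885. For Myod1 they were Slc35b4 (0.996), a nucleotide sugar transporter gene, Gtse1 (0.996), which acts in G2 and S phase, and Wdr6 (0.990). Of these, Gtse1 and Wdr6 fell without a block, with differences of -3.27 and -2.39 (limma adjusted p = 0.0201 and 0.0376). For Myf5 they were Fbp1 (0.988), a gluconeogenic enzyme whose highest value was 0.585, Pdcd6 (0.973) and Fdft1 (0.964), the squalene synthase gene. Between 35 (Myf5) and 412 (Myf6) named genes reached an r above 0.9, so a high r alone marks no gene out.

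Genes around the factors were counted by role, against a median difference of 0.20 over all features tested. The lists were written with earlier results of these data known, so their counts are a description. Of the E protein partners, Tcf12 read 17.2, 11.04 and 14.9 while proliferating and 7.58, 5.75 and 7.93 once differentiated, with no overlap (difference -1.01, limma adjusted p = 0.304). Tcf4 read 1.88, 5.61 and 3.54 against 2.40, 9.55 and 5.58 (difference 0.59, limma adjusted p = 0.749). Tcf4 was lowest in mouse 1 and highest in mouse 2 in each group, and its groups overlapped. Tcf3 and the other MEF2 genes Mef2a, Mef2b and Mef2d were not analysed here.

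Of 13 measured antagonists of the myogenic factors 0 passed without a block, with a median difference of -0.39, and 3 fell and 2 rose with mouse as a random block (background 5.28% and 5.07% of features). Snai2, a zinc finger factor that can occupy E-boxes, went from 6.05, 6.89 and 5.25 to 0.565, 0.625 and 1.89 (difference -2.79, limma adjusted p = 0.0584, or 0.00985 with the random block). Zeb1, an E-box-binding repressor, went from 2.89, 2.34 and 2.41 to 7.83, 7.27 and 7.44 (difference 1.57, limma adjusted p = 0.103 or 0.0123). The other 3 genes were named after their values were seen. Id3, which sequesters E proteins, and Twist2 were the remaining falls (-1.83 and -2.41, limma adjusted p = 0.0115 and 0.0445 with the random block), and Bhlhe40 rose by 2.99 (0.0103, and 0.0495 with the fixed block). Twist2 read 0.422, 0.871 and 0.183 against 0.0264, 0.188 and 0.0898, close to the dim level of 0.179 (the 25th percentile of positive intensities) and with overlapping groups, so the size of its difference is uncertain. Antagonists therefore moved in both directions in that fit.

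Of 8 measured coactivators and cofactors 0 passed in any of the 3 limma fits, with a median difference of 0.26. Kat2b, a histone acetyltransferase that acts with MyoD, and Ncoa2 had the smallest p, with differences of 1.42 and 0.70 (limma adjusted p = 0.337 and 0.708). Ncoa2 read 0.0804, 0.110 and 0.114 against 0.462, 0.0800 and 0.116, under the dim level of 0.179 except in differentiated mouse 1. Kat2b read 0.169, 0.116 and 0.283 while proliferating, in mice 1 and 2 under that level. The sizes of both differences are therefore uncertain. Of 8 corepressors and histone deacetylases 0 passed without a block, with a median of -0.61, and 5 were lower in all mice (18% of features). Hdac1, a deacetylase that binds MyoD in undifferentiated cells, was the 1 that fell with the random block (-1.41, limma adjusted p = 0.0487, or 0.261 without a block). Sin3a had a difference of -1.38 (limma adjusted p = 0.227).

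Among 14 measured genes that signal to the factors and 7 upstream lineage factors, 0 passed in any of the 3 limma fits. Medians were -0.06 and 0.12. The smallest p in the signalling list belonged to Fgfr4, a receptor of fibroblast growth factors, and to the cell adhesion gene Cdh2, with differences of -1.37 and -1.08 (limma adjusted p = 0.285 and 0.304). Fgfr4 read 0.162, 0.141 and 0.387 against 0.115, 0.0575 and 0.0784, under the dim level of 0.179 except in proliferating mouse 3. The size of its difference is therefore uncertain. Among lineage factors Pitx3 read 18.4, 15.9 and 13.2 against 7.76, 4.69 and 9.53 (difference -1.16, limma adjusted p = 0.276), and Pax3 differed by 0.58 (limma adjusted p = 0.664).

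**Figure D4:**
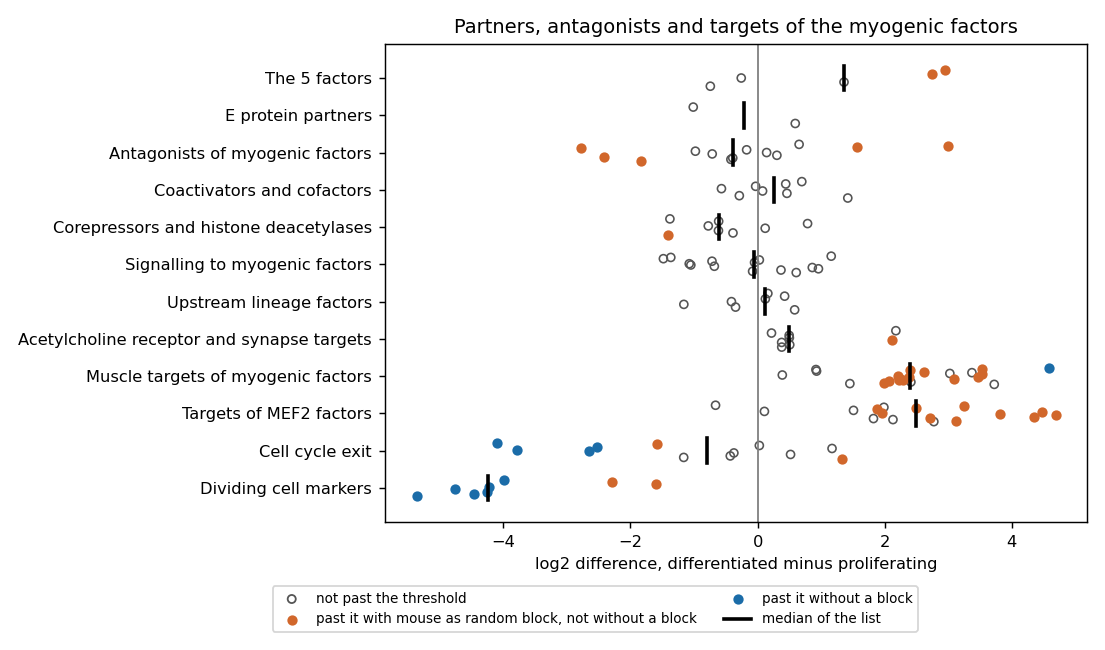
The log2 difference (differentiated minus proliferating) of every measured gene of each list around the factors, by role, with the list median as a bar; filled points passed limma's adjusted threshold without a block (blue) or with mouse as a random block but not without a block (orange). Muscle and MEF2 targets lie to the right with medians of 2.39 and 2.50, dividing cell markers to the left with a median of -4.24.

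Targets of the factors, in lists written with earlier results of these data known, were mostly higher in differentiated cells. All 22 measured muscle targets had higher values in 3 of 3 mice (31% of features), and their median difference was 2.39. Without a block 1 of the 22 passed (0.285% of features), Tmod4, which caps thin filaments, with the fixed block again 1 passed (0.56%), and 14 passed with the random block (5.07%). Tmod4 went from 0.224, 0.109 and 0.268 to 10.3, 1.52 and 5.81 (difference 4.59, limma adjusted p = 0.0335). Its proliferating values were close to the dim level, and in mouse 2 under it, so the size of its difference is uncertain. For Tnni2, fast troponin I, the difference was 3.09 (limma adjusted p = 0.0938, and 0.0144 under the random block). Of 17 measured targets of MEF2 factors 15 had higher values in 3 of 3 mice, the median was 2.50, and 0 passed without a block, 0 with the fixed block and 10 with the random block. Tcap, a titin-binding protein, and Csrp3, a muscle LIM protein, differed by 4.69 and 4.47 (limma adjusted p = 0.0881 and 0.0745, or 0.0111 and 0.0101 with the random block).

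Genes of the acetylcholine receptor and synapse, whose promoters carry E-boxes bound by myogenic factors, were considered next. Of 8 measured, 7 had higher values in 3 of 3 mice (31% of features), the median was 0.50, and 0 passed without a block (0.285% of features higher). Chrne, the adult epsilon subunit, went from 0.115, 0.0858 and 0.0418 to 0.492, 0.196 and 0.344, close to background, and was the 1 that rose with the random block (5.07% of features; difference 2.11, limma adjusted p = 0.0193, or 0.120 without a block). Ache, acetylcholinesterase, had a difference of 2.17 (limma adjusted p = 0.431). Ache read 1.85, 0.102 and 0.0835 while proliferating, in mice 2 and 3 under the dim level, and 1.92, 0.567 and 1.33 once differentiated. The size of its difference is therefore uncertain. Whether this list differs from the other target lists was not tested.

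The cell cycle exit list held 12 measured genes, among them genes that promote the cycle and genes that oppose it. Without a block 4 fell (1.01% of features), Cdk1, Ccnd1, E2f1 and Ccne1, and 5 fell and 1 rose with the random block (5.28% and 5.07% of features). The 1 that rose was Cdkn1a, an inhibitor of the cycle, named after its values were seen (difference 1.32, limma adjusted p = 0.0426, or 0.268 without a block). Cdk1, the kinase of mitosis, and Ccnd1, cyclin D1, fell, with differences of -4.10 and -3.79, as did E2f1 with -2.65 (limma adjusted p = 0.0297, 0.0308 and 0.0461). With mouse as a fixed block, where 0.874% of features fell, only Ccnd1 of the 12 passed (limma adjusted p = 0.0495, against 0.0516 for Cdk1 and 0.0628 for E2f1). Of 8 markers of dividing cells 6 fell, with a median of -4.24, and Top2a, Cdc6 and Ccna2 had the largest differences, -5.36, -4.77 and -4.47 (limma adjusted p = 0.0201, 0.0308 and 0.0201). Cdc6 read 0.380, 0.0527 and 0.0870 once differentiated, in mice 2 and 3 under the dim level of 0.179. Top2a read 0.125 in differentiated mouse 2 and Ccnd1 read 0.104 in differentiated mouse 3. The sizes of the Cdc6, Top2a and Ccnd1 differences are therefore uncertain. With the fixed block 4 of the 8 passed, and Cdc6 did not (limma adjusted p = 0.0629).

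The cultures were checked against markers of satellite cells and of other cell types. Besides the factors, 7 of 12 satellite cell and myoblast markers were measured, with summed intensities of 37.7 to 87.9 in proliferating and 20.1 to 37.4 in differentiated cultures. Vcam1, a cell adhesion receptor, fell (-3.13, limma adjusted p = 0.0335), Met, the receptor for hepatocyte growth factor, differed by -1.13 (0.266, or 0.0449 with the random block), and Pax7 was not analysed here. All 5 measured endothelial markers, 2 of 3 macrophage markers and the Schwann cell marker S100b lay under the array median on every array. Summed intensities were 0.412 to 0.825 and 0.422 to 0.947 for endothelial, 0.361 to 1.3 and 0.204 to 0.886 for macrophage, and 0.0287 to 0.135 and 0.0634 to 0.215 for Schwann cell markers (proliferating, then differentiated). Of 8 fibroblast markers 6 lay under the array median, and Tcf21 at 38.5 to 188 held most of the sum, the others adding to 0.569 to 1.35 and 1.53 to 2.11. The smooth muscle sum of 12.8 to 98.3 and 59.4 to 170.1 over 5 genes was mostly Acta2, which cultured myoblasts also express, and the 2 adipocyte markers summed to 0.552 to 3.92 and 1.33 to 1.80. In these 6 other lists 0 genes passed in any of the 3 limma fits. The smallest p in each belonged to Col1a2 and Pdgfra (differences 1.3 and 1.42, fibroblast), Cnn1 and Acta2 (1.24 and 1.42, smooth muscle), Cdh5 and Tek (0.75 and -0.37, endothelial), Cd14 and Lyz2 (-1.46 and 0.92, macrophage), S100b (0.78) and Pparg and Fabp4 (0.64 and -0.99, adipocyte), with limma adjusted p from 0.299 to 0.824. The part of these cells in the factors' values was not tested.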

How the data were processed

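Expression was measured on 6 one-colour arrays, 3 per group. Per the labels' protocols, biotin-labelled cRNA from 5 µg of total RNA was hybridised, with bacterial control mRNAs for intensity normalization. Intensities were deposited on a linear scale, and for the scanner software, background method and scaling the sources used here give nothing. The number of arrays limits the precision, and no detection call was used.

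Features were named from the platform annotation (6373 with 1 symbol, 0 with several, 4127 with none), checked through Entrez IDs in the gene table of GRCm38.p6. A floor of 0.0236, the 1st percentile of all positive intensities, was applied, and limma 3.58.1 (R 4.3.3) was run on log2 intensities (group as the only term, Benjamini-Hochberg over 10186 features, threshold 0.05). Mouse as a fixed or random block was an alternative. The design text states that each mouse gave both cultures, and deviations of same-numbered arrays correlated at 0.42, 0.37 and 0.28. Other alternatives, all without a block, covered the floor, a pseudocount, scaling, dim features, the prior, the threshold and left-out arrays. The procedure was also run on simulated data. The planted differences were larger than those of the factors, and every feature had the same spread. That run therefore does not cover differences and spreads like those of the factors.

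The members and gene lists were chosen with earlier results of these data known. Named genes were the 5 factors, the 3 genes most like each, up to 3 past the threshold per list (where fewer than 2 passed, also the 2 with the smallest p), and all E protein and MEF2 genes. Promoter windows came from RefSeq, with Python 3.11.15 for the search.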

Additional observations from a re-analysis of the deposited data

How the results depend on the processing

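Among the 5 factors 0 passed without a block, and no alternative run changed the direction of Myod1, Myog, Myf6 or Mef2c. Mef2c and Myf6 passed with a fixed replicate block or a random replicate block (2.95 and 2.74, as without a block), with a pseudocount at the 25th percentile (2.85 and 2.53) and with a trended and robust prior (2.95 and 2.74). Their limma adjusted p over all alternatives except left-out arrays was 0.00731 to 0.0886 and 0.00838 to 0.103. With arrays or mice left out, always without a block, it was 0.0457 to 0.434 and 0.0467 to 0.497. Leaving out arrays gave 2.41 to 3.52 for Mef2c, 2.29 to 3.34 for Myf6, 0.65 to 2.13 for Myog, -0.80 to -0.70 for Myod1 and -1.43 to 0.84 for Myf5. Myf5 was positive without differentiated replicate 3 (0.84) and without both arrays of mouse 3 (0.56); the cause was not tested. Quantile normalization moved the median difference of all features from 0.20 to 0.04. Relative to that median Myod1 was at -0.95 before and -1.19 after it, and Myog at 1.15 and 0.88.

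The counts of 29 features higher and 103 lower became 57 and 89 with the fixed replicate block, 516 and 538 with the random block, 65 and 178 with the floor raised to the 10th percentile, 127 and 266 with the pseudocount, 57 and 172 without dim features, and 125 and 263 with the trended prior. Quantile normalization gave 162 lower. At an adjusted p under 0.01 limma gave 0 and 0, against 1519 at an unadjusted p under 0.05. Left-out arrays or mice gave 0 to 91 higher and 0 to 88 lower: 91 and 88 without the proliferating array of mouse 1, 8 and 51 without the differentiated array of mouse 1, and 0 and 0 in each other case, where limma had 854 to 1516 at an unadjusted p under 0.05. For each factor only 1 feature was named, so the choice of feature could not be varied.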
